A study of Mus musculus with 3 samples.

Results

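The genes described here are 10 ligands and receptors of the vascular endothelial growth factor (VEGF) and angiopoietin families, chosen by gene symbol from the 32285 genes in the feature lists. They were followed through the nuclei classes of 3 mouse liver libraries. The ligands were Vegfa, Vegfc, Angpt1 and Angpt2, the receptor tyrosine kinases were Kdr, Flt1, Flt4 and Tek, and the neuropilins were Nrp1 and Nrp2. All 10 had UMIs in the nuclei kept.

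Single nuclei were sequenced from frozen liver of male C57BL/6J mice, with 1 library per mouse. ND was 1 normal mouse. STZ-HFHC 1 and STZ-HFHC 2 were 2 mice given 0.2 mg streptozocin at 3 days of age and a high-fat, high-cholesterol diet from 4 weeks of age, a model of liver fibrosis related to metabolic dysfunction-associated steatohepatitis. Streptozocin destroys the insulin-producing cells of the pancreas. Both STZ-HFHC mice had the agent and the diet, whose effects cannot be told apart. The label of ND also starts with another code than those of the STZ-HFHC mice, and library and condition cannot be told apart. With 1 ND mouse there is no spread on that side, and no test between conditions was run.

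VEGF-A, the product of Vegfa, is the main growth factor for blood vessels. It signals through VEGF receptor 2 (Kdr), while VEGF receptor 1 (Flt1) binds it tightly with weak kinase activity and acts largely as a trap. VEGF-C, the product of Vegfc, acts on VEGF receptor 3 (Flt4), best known from lymphatic vessels and also present in liver sinusoidal endothelium, after proteolytic processing. Angiopoietin 1 (Angpt1) activates the receptor TIE2 (Tek) and steadies vessels, and angiopoietin 2 (Angpt2) opposes or replaces it depending on context. Neuropilin 1 and neuropilin 2 bind VEGFs and class 3 semaphorins and serve as co-receptors.

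On GRCm38 the ligand genes lie at chr17:46016993-46032369 (Vegfa, minus strand), chr8:54077606-54187096 (Vegfc, plus strand), chr15:42424723-42676977 (Angpt1, minus strand) and chr8:18690263-18741562 (Angpt2, minus strand). The kinase genes lie at chr5:75932827-75978458 (Kdr, minus strand), chr5:147561604-147726011 (Flt1, minus strand), chr11:49609263-49652739 (Flt4, plus strand) and chr4:94739289-94874976 (Tek, plus strand). Nrp1 lies at chr8:128358604-128503363 and Nrp2 at chr1:62703285-62818695, both on the plus strand.

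The RefSeq promoter table held windows for 8 of the 10 genes, and 4 are printed with annotated exon bases left out. Vegfa is shown as a ligand read mostly in hepatocyte-like nuclei, and Kdr, Flt1 and Tek as receptors with higher levels in endothelial-like than in hepatocyte-like nuclei of every library. Each line is the stretch upstream of the gene start on GRCm38.p6, written 5′ to 3′ on the strand of the gene. Capitals mark CAGGAA, a form of the ETS site, or its reverse TTCCTG. The windows are chr17:46032378-46032627 for Vegfa, chr5:75978459-75978705 for Kdr, chr5:147726012-147726261 for Flt1 and chr4:94739039-94739288 for Tek.
Vegfa: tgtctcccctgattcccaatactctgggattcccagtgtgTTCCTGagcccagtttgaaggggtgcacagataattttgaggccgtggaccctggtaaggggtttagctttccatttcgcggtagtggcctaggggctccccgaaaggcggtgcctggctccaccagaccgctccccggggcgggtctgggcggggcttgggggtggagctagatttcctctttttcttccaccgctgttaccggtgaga
Kdr: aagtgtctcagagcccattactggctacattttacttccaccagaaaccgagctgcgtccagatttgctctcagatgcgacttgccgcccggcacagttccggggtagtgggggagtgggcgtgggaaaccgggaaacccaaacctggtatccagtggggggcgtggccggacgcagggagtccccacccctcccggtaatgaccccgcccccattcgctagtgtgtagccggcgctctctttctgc
Flt1: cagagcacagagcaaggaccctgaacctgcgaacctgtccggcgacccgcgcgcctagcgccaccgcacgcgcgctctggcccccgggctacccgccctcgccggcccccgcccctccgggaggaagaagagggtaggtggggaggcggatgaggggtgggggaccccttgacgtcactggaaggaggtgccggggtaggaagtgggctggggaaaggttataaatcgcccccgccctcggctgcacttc
Tek: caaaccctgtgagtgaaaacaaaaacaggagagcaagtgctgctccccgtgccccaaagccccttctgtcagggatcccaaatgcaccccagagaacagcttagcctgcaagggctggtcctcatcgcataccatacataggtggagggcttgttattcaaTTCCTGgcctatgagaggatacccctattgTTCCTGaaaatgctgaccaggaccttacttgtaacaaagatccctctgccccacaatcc
ETS factors are a family with members active in endothelium. The Tek window held 2 matches to CAGGAA on either strand, the Vegfa window 1, and the Kdr and Flt1 windows 0. Over 32851 promoter windows of 250 bases, 25.7% held at least 1 match. ACGTG, a form of the hypoxia response site, or its reverse CACGT was in 16.6% of all windows and had 0 matches in these 4. No match says only that these letters are not in this stretch. Other forms of the ETS and hypoxia response sites were not searched for.

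After the limits on genes and mitochondrial counts, 8494, 8921 and 10921 nuclei remained in ND, STZ-HFHC 1 and STZ-HFHC 2, carrying 42715797, 44350401 and 55632923 UMIs. Clustering without the 10 genes gave 23 clusters. Fixed marker lists named nuclei of 9 classes and left 8.68%, 21.5% and 15.4% of nuclei unnamed. Many clusters came nearly from 1 condition: the largest hepatocyte-like cluster held 3833, 0 and 4 nuclei of the 3 libraries, and the largest endothelial-like cluster of ND held 1179, 1 and 8. Barcodes shared between libraries were 29 to 32 per pair, 0 of them with identical counts. UMIs of hepatocyte markers were found in every class. Their sum ranged over the 9 classes from 13313 to 20450.5 CPM (counts scaled so that a class sums to 1e6 UMIs) in ND, from 5041 to 15661 in STZ-HFHC 1 and from 9851 to 17415 in STZ-HFHC 2.

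Endothelial-like nuclei numbered 1193, 871 and 1053 in ND, STZ-HFHC 1 and STZ-HFHC 2. The 12 endothelial markers summed to 1485, 3542 and 2333 CPM there, against 189.9, 166 and 180.5 CPM in hepatocyte-like nuclei. Stab2, a scavenger receptor of sinusoidal endothelium, stood at 914, 1761 and 1097 CPM. In the largest endothelial-like cluster of ND, 8 of the 12 endothelial markers were raised over the other clusters, and so were 3 of 10 hepatocyte markers. In the largest endothelial-like cluster of the STZ-HFHC mice all 12 were raised. The hepatocyte markers summed to 16448, 10188 and 13797 CPM in the same nuclei, and their median depth was 5249, 1752 and 1918 UMIs. Marker level, depth and hepatocyte RNA therefore all differed with condition in this class, and their part in the results below was not tested. Stellate or fibroblast-like nuclei, 1187, 628 and 1316 in number, had their own markers at 2959, 10850 and 8945 CPM. Their hepatocyte markers stood at 15374, 7431 and 9851 CPM.

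**Figure D1:**
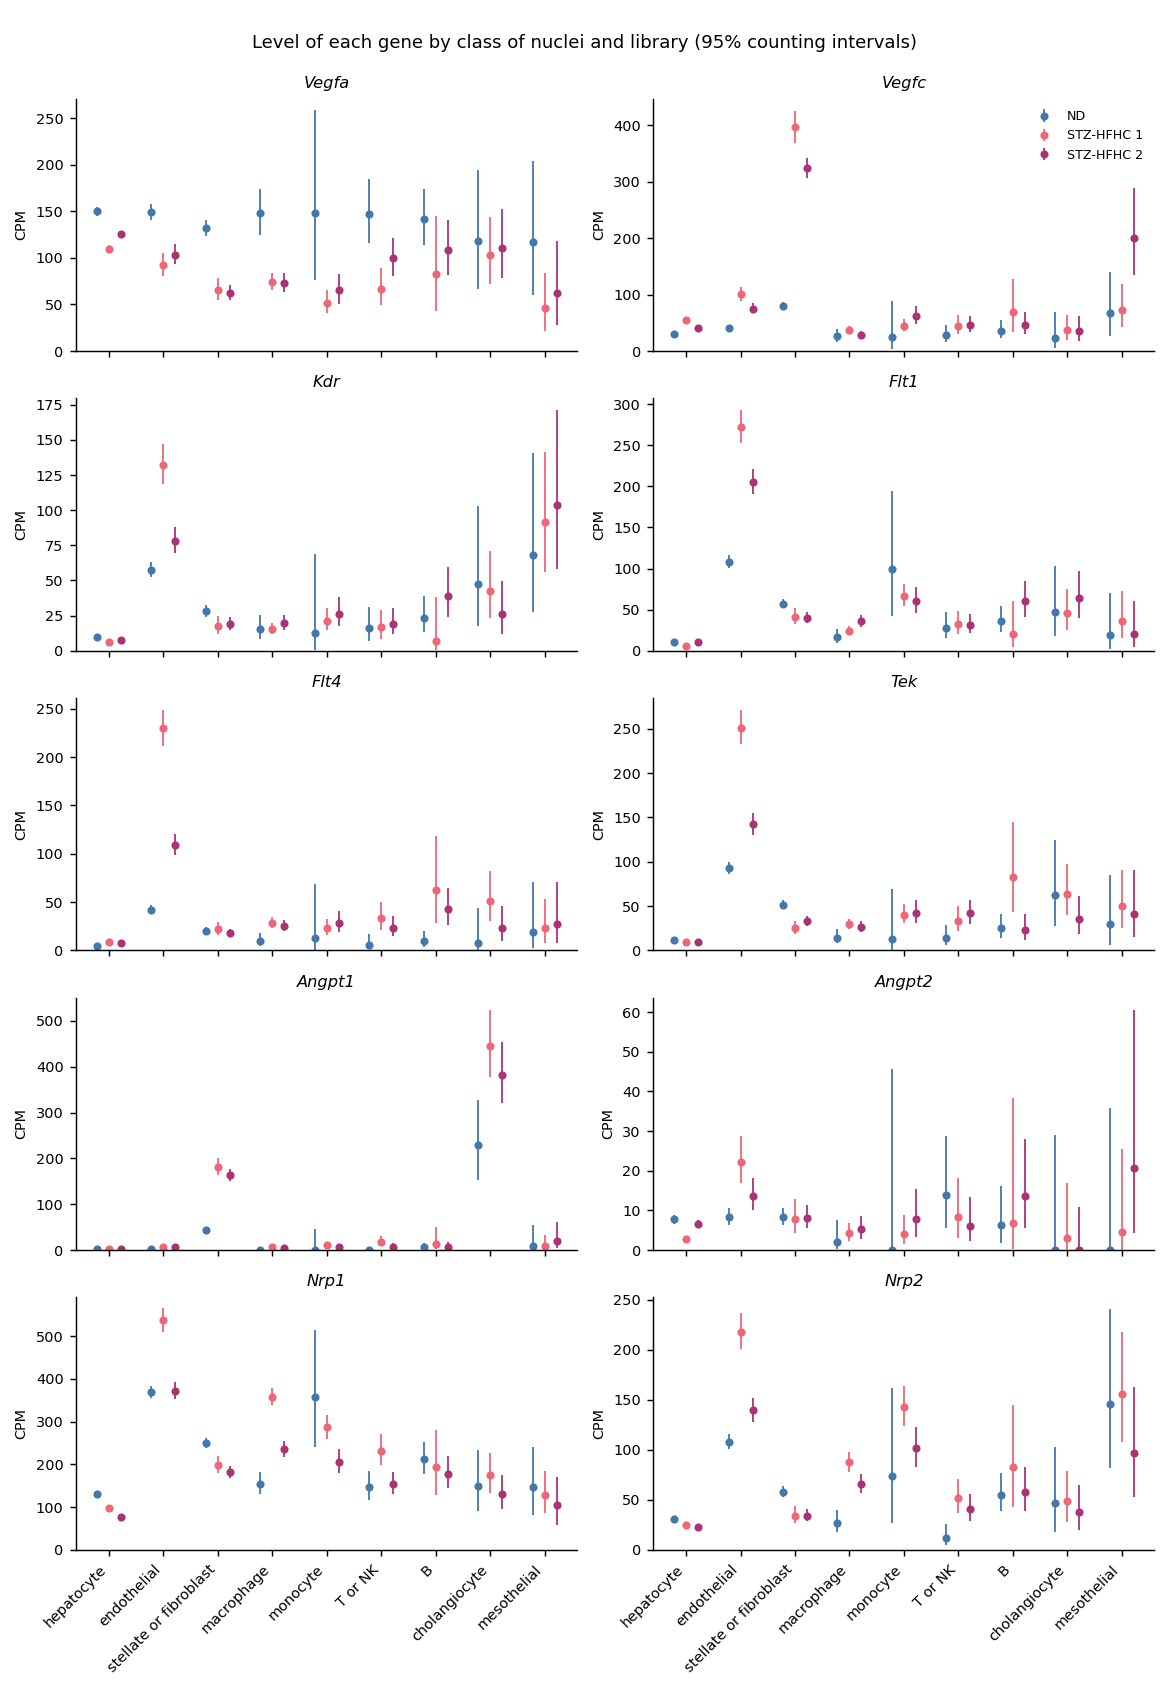
Level of each of the 10 genes in CPM (linear axes) in the 9 classes of nuclei, 1 point per library with its exact 95% Poisson interval, which covers counting error only. Kdr, Flt1, Flt4 and Tek stand highest in endothelial-like nuclei except Kdr, which is as high in the few mesothelial-like nuclei; Vegfc stands highest in stellate or fibroblast-like nuclei and Angpt1 in cholangiocyte-like nuclei.

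Levels below are CPM of all UMIs of a class in 1 library, with exact 95% Poisson intervals in brackets for counting error alone, in the order ND, STZ-HFHC 1, STZ-HFHC 2. Counts came from the 3′ ends of transcripts and were not scaled by length, so levels are compared between classes and libraries and never between genes. A gene was called between conditions by a rule of size: at least 50 UMIs in the class over the 3 libraries, and a level at least 2-fold from ND, either above it for both STZ-HFHC mice or below it for both. Log2 ratios to ND are given for STZ-HFHC 1 and then STZ-HFHC 2.

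Vegfa was read mainly in hepatocyte-like nuclei. Its level there was 149.8 CPM (145 to 155) in ND, 109.9 CPM (106 to 114) in STZ-HFHC 1 and 126 CPM (122 to 129) in STZ-HFHC 2. Both STZ-HFHC mice were below ND and the intervals did not overlap, with log2 ratios of -0.45 and -0.26, short of the rule. Scaled instead to UMIs of the 10 hepatocyte markers, the log2 ratios were -0.06 and -0.02.

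Hepatocyte-like nuclei held 55.2%, 65.3% and 71.2% of all Vegfa UMIs, close above their 53.4%, 58.2% and 62.8% share of all UMIs. In ND, Vegfa was almost level across the 9 classes, from 117 CPM in mesothelial-like nuclei to 149.8 CPM in hepatocyte-like nuclei. In the STZ-HFHC mice the classes spread further, from 45.8 to 109.9 CPM and from 62.3 to 126 CPM. Hepatocyte-like nuclei led in all 3 libraries, but their range overlapped that of the next class, cholangiocyte-like nuclei, at 118, 103 and 111 CPM.

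Vegfa also differed slightly along the lobule axis. Hepatocyte-like nuclei thinned to 1000 UMIs were ranked within each library by 7 pericentral against 7 periportal marker genes, Vegfa being in neither list, and cut into 3 equal parts. From the periportal to the pericentral part, Vegfa stood at 160.1, 154 and 136 CPM in ND. It stood at 117, 107 and 105 CPM in STZ-HFHC 1 and at 130.2, 127 and 119 CPM in STZ-HFHC 2. The pericentral part was lowest in all 3 libraries, with log2 ratios to the periportal part of -0.24, -0.15 and -0.13. The end intervals were apart in ND (151 to 169 against 128 to 145) and overlapped in STZ-HFHC 1 (109.7 to 124 against 98.6 to 112) and STZ-HFHC 2 (124 to 137 against 113 to 126). The parts are ranges of a score and not cell types, and 852 of 4545, 495 of 2896 and 910 of 4705 nuclei lay within 0.25 of a boundary. An unnamed cluster of 662, 0 and 2 nuclei, with the pericentral markers Lgr5, Glul and Slc1a2 among its leading genes, was not ranked. A cluster of 269 and 477 STZ-HFHC nuclei, with Slc1a2 and Glul among its leading genes, was ranked. Glul stood at 152, 499 and 479 CPM in the pericentral part, which may thus cover unlike stretches of the lobule in ND and STZ-HFHC.

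Vegfc stood highest in stellate or fibroblast-like nuclei in every library. Its level there was 79.9 CPM (73.4 to 86.8) in ND, 397 CPM (369 to 426) in STZ-HFHC 1 and 324 CPM (307 to 342) in STZ-HFHC 2. Those values were 2.60-, 7.19- and 8.0-fold over hepatocyte-like nuclei of the same library. The STZ-HFHC libraries were both above ND, with log2 ratios of 2.31 and 2.02, and the gene was past the rule. Stellate or fibroblast-like nuclei held 32.7%, 23.1% and 35.4% of Vegfc UMIs with 16.4%, 4.37% and 7.16% of all UMIs. Hepatocyte-like nuclei, the largest class, held more Vegfc UMIs, 701, 1424 and 1413 against 559, 768 and 1290.

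The shares of nuclei moved the same way. With every nucleus thinned to 1000 UMIs, 11.2%, 29.6% and 26.4% of stellate or fibroblast-like nuclei had a Vegfc UMI, against 33.4%, 51.0% and 48.9% before thinning. In hepatocyte-like nuclei the thinned shares were 3.01%, 5.39% and 3.76%. The unthinned stellate or fibroblast-like nuclei had a median of 4716, 2222 and 2239 UMIs, and the hepatocyte-like nuclei had 4070, 8023 and 6549.

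Inside the cluster that both conditions shared, Vegfc of ND was close to the STZ-HFHC levels. Stellate or fibroblast-like nuclei fell into a shared cluster of 141, 625 and 1314 nuclei and a second cluster of 1046, 3 and 2 nuclei. In the shared cluster, Vegfc stood at 315 CPM (257 to 381), 397 CPM (369 to 426) and 324 CPM (307 to 342), and the intervals of ND overlapped both others. In the second cluster of ND it stood at 68.1 CPM (62.0 to 74.7). Hepatocyte markers summed to 9242, 7431 and 9852 CPM in the shared cluster and to 15681 CPM in the second cluster of ND, while stellate or fibroblast markers summed to 13979, 10855 and 8948 CPM and to 2407 CPM.

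Angpt1 followed Vegfc in these nuclei. Over the whole class it stood at 43.3 CPM (38.6 to 48.5), 181 CPM (163 to 201) and 163 CPM (151 to 176), with log2 ratios of 2.07 and 1.91, past the rule. In the shared cluster it stood at 195 CPM (150.3 to 248), 181 CPM (163 to 201) and 163 CPM (151 to 176), and at 35.7 CPM (31.3 to 40.6) in the second cluster of ND. Within the shared cluster the 3 intervals thus overlapped.

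Vegfa went the other way over the class, at 132, 65.6 and 62.3 CPM with log2 ratios of -1.0 and -1.08, and was the 1 gene called lower. In the shared cluster it stood at 74.9 CPM (48.5 to 111), 65.2 CPM (54.3 to 77.6) and 62.3 CPM (54.8 to 70.6), and at 135 CPM (126 to 144) in the second cluster of ND. The class as a whole therefore had 2 genes called higher and 1 lower of 10 tested. Over all 11828 genes tested in the class, 11.3% were called higher and 8.49% lower. With the shared cluster alone, a comparison chosen after seeing the clusters, 0 of 9 genes tested were called. The share over all genes is not given for that cluster.

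**Figure D2:**
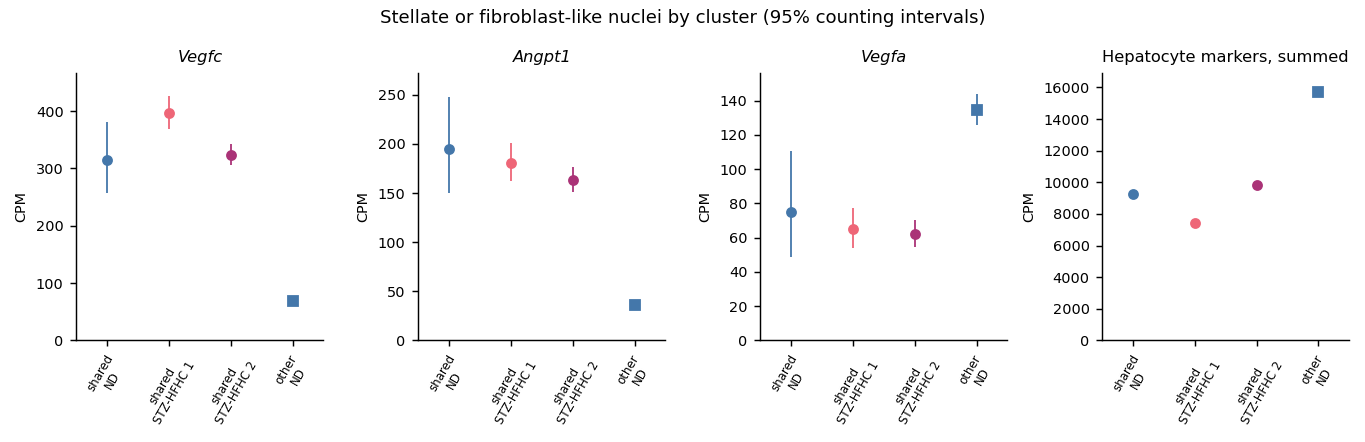
Vegfc, Angpt1, Vegfa and the sum of the 10 hepatocyte markers (CPM, linear axes from 0) in stellate or fibroblast-like nuclei. Circles are the cluster shared by the 3 libraries, squares the second cluster of ND, and bars exact 95% Poisson intervals. In the shared cluster ND sits beside the STZ-HFHC mice for all 3 genes, at 315, 195 and 74.9 CPM.

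Angpt1 had its highest level in cholangiocyte-like nuclei, a small class of 32, 102 and 134 nuclei in which 6 of 8 cholangiocyte markers were raised. The level was 228 CPM (153 to 328) from 29 UMIs in ND, 446 CPM (377 to 524) from 147 UMIs in STZ-HFHC 1 and 383 CPM (320.0 to 454) from 131 UMIs in STZ-HFHC 2. Those levels were 106-, 132- and 120.4-fold over hepatocyte-like nuclei, where Angpt1 stood at 2.15, 3.37 and 3.18 CPM. Cholangiocyte-like, then stellate or fibroblast-like, then mesothelial-like was the order of Angpt1, and neither neighbouring pair overlapped.

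The 2 STZ-HFHC mice had more Angpt1 in cholangiocyte-like nuclei than ND, with log2 ratios of 0.95 and 0.73, short of 2-fold. The summed cholangiocyte markers moved with it, at 2819, 7093 and 4189 CPM. At 1000 UMIs per nucleus, 32.1%, 36.8% and 36.1% of these nuclei had an Angpt1 UMI, against 0.264%, 0.518% and 0.361% of hepatocyte-like nuclei. By number of UMIs, stellate or fibroblast-like nuclei held the largest share of the gene, 74.6%, 41.3% and 60.7%, against 7.14%, 17.3% and 12.2% in cholangiocyte-like nuclei. Macrophage-like nuclei of ND had 0 Angpt1 UMIs, which allows up to 3.1 CPM (3 counts), and the STZ-HFHC mice had 7.01 and 5.54 CPM.

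Angpt2 was sparse in all classes. Endothelial-like nuclei had 8.31 CPM (6.34 to 10.7) from 60 UMIs, 22.3 CPM (16.9 to 28.8) from 58 UMIs and 13.8 CPM (10.2 to 18.1) from 50 UMIs. Hepatocyte-like nuclei had 7.71, 2.75 and 6.62 CPM, so the endothelial level was 1.08-, 8.11- and 2.08-fold higher. By number, hepatocyte-like nuclei held 176, 71 and 231 of the 343, 259 and 460 Angpt2 UMIs. In ND the endothelial interval overlapped that of hepatocyte-like nuclei (6.61 to 8.94). The STZ-HFHC libraries were both above ND in endothelial-like nuclei, with log2 ratios of 1.43 and 0.73, and the gene was not called.

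The 4 receptor kinases marked endothelial-like nuclei in every library. Flt1 stood at 108 CPM (101 to 116), 272 CPM (252 to 293) and 206 CPM (191 to 221) there, 10.3-, 43.3- and 19.3-fold over hepatocyte-like nuclei. Tek stood at 92.5 CPM (85.6 to 99.8), 251 CPM (232 to 271) and 142 CPM (130.4 to 155), 7.82-, 25.7- and 15-fold over hepatocyte-like nuclei. The ranges of both genes lay above those of the next class, monocyte-like nuclei for Flt1 and cholangiocyte-like nuclei for Tek.

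Kdr stood at 57.6 CPM (52.2 to 63.4), 132 CPM (119 to 147) and 78.1 CPM (69.3 to 87.7) in endothelial-like nuclei, 5.87-, 22.6- and 10.7-fold over hepatocyte-like nuclei. Mesothelial-like nuclei, the lining of the liver surface, had as much Kdr, at 68.1, 91.7 and 104 CPM from 7, 20 and 15 UMIs, and the 2 classes overlapped. Cholangiocyte-like nuclei came next, and the endothelial range lay above theirs without overlap.

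Flt4 stood at 42.1 CPM (37.5 to 47.1), 229.7 CPM (212 to 249) and 109 CPM (99.0 to 121) in endothelial-like nuclei, 10.0-, 25.7- and 13.8-fold over hepatocyte-like nuclei. Endothelial-like nuclei led in each library, and their range overlapped that of B cell-like nuclei, at 9.43, 62.1 and 42.6 CPM from 6, 9 and 22 UMIs.

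A UMI of any of the 4 kinases was found in 31.3% (28.5 to 34.2), 61.6% (58.1 to 65.1) and 47.9% (44.7 to 51.1) of endothelial-like nuclei at 1000 UMIs per nucleus, with exact binomial intervals. Hepatocyte-like nuclei, which should lack these receptors, gave 4.18%, 4.07% and 4.21%. Stellate or fibroblast-like nuclei gave 16.2%, 12.7% and 11.0%, and macrophage-like nuclei 11.4%, 12.7% and 12.8%. The endothelial markers summed to 779, 627 and 602 CPM in stellate or fibroblast-like nuclei and to 339, 630.0 and 576 CPM in macrophage-like nuclei, both above the hepatocyte-like level.

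All 4 kinases were higher in both STZ-HFHC mice than in ND in endothelial-like nuclei, and STZ-HFHC 1 was highest for each. Flt4 had log2 ratios of 2.45 and 1.38, a mean of 1.91 ± 0.76 (SD, n = 2 mice), and passed the rule. Flt1 had 1.33 and 0.93, Tek 1.44 and 0.62 and Kdr 1.2 and 0.44, each past 2-fold in STZ-HFHC 1 alone. Of the 10 genes, 2 were called higher, Flt4 and Angpt1, and 0 lower. With STZ-HFHC 1 alone against ND, 7 genes were called, and with STZ-HFHC 2 alone only Flt4. When endothelial nuclei were picked by their markers without clustering, 0 were called. Leaving out subcluster 1 of these nuclei (described below), a step chosen after seeing its leading genes, also gave 0, with mean log2 ratios of 0.76 for Flt4, -0.44 for Kdr, -0.09 for Flt1 and -0.03 for Tek. That step took out 779 nuclei of ND and 0 and 2 of the STZ-HFHC mice. Subcluster 5, with 71 and 225 STZ-HFHC nuclei and hepatocyte markers at 15405 CPM, was kept. The cut was thus unequal between conditions, and its part in these ratios was not tested. Angpt1 had only 13, 17 and 21 UMIs in the whole endothelial-like class, and its 1.80, 6.54 and 5.78 CPM were near those of hepatocyte-like nuclei. Among the 11616 genes tested in the class by the rule for both mice, 8.34% were called higher and 5.43% lower. No such share is given for single mice or for the other choices of nuclei, so those counts have no background. The median log2 ratio of the 10 genes was 1.33 and 0.68, beside 0.10 and 0.12 over all genes tested.

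**Figure D3:**
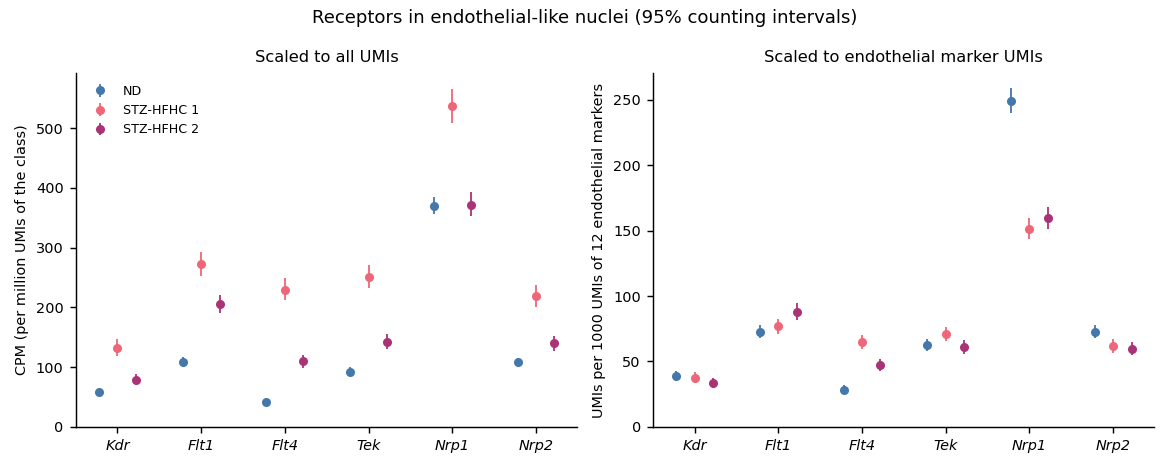
The 6 receptors and co-receptors in endothelial-like nuclei, as CPM of all UMIs (left) and per 1000 UMIs of the 12 endothelial markers (right), with exact 95% Poisson intervals on linear axes. On the left every gene is highest in STZ-HFHC 1; on the right Flt4 is highest in STZ-HFHC 1 (64.8) and lowest in ND (28.4), and Nrp1 is highest in ND (249).

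The endothelial markers were also higher in both STZ-HFHC mice in this class, and the receptor counts were therefore also taken per 1000 endothelial marker UMIs. On this scale Kdr stood at 38.8, 37.4 and 33.5, Flt1 at 72.8, 76.8 and 88.2 and Tek at 62.3, 70.9 and 61.1. Flt4 had the widest gap of the kinases, at 28.4, 64.8 and 46.9, with log2 ratios of 1.19 and 0.73, short of the rule in STZ-HFHC 2. Nrp1 was lower in both STZ-HFHC mice on this scale, at 249, 152 and 159.5. The mean direction for Kdr, Nrp1 and Nrp2, and that of Tek in STZ-HFHC 2, thus depended on the scale. The scaling was chosen after seeing the marker levels.

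The endothelial-like nuclei divided by condition, and the receptors followed the division. Of 7 subclusters, subcluster 1 (led by Gm15622, AW495222 and Zbtb7c) held 779 nuclei of ND at a median of 6649 UMIs, with hepatocyte markers at 16752 CPM and 7 sinusoidal markers at 793 CPM. Of its 10 leading genes, 5 (Gm15622, Zbtb7c, Bhmt, Gm14764 and Elovl3) also led the largest hepatocyte-like cluster of ND, and 0 were endothelial markers, so the subcluster is given by number only. Subcluster 4 (Gm16271, Mup17, Gm15674) held 389 nuclei of ND at 1799.5 UMIs, with sinusoidal markers at 2483 CPM, and 4 of its leading genes (Mup17, Mup11, Serpina1e and Mup3) also led a hepatocyte-like cluster of ND. Flt1 stood at 67.9 CPM (61.3 to 75.1) in the former and 255 CPM (230.1 to 282) in the latter, Kdr at 35.1 and 139.7 CPM, Flt4 at 27.7 and 94.7 CPM and Tek at 64.2 and 193 CPM. The lower level was thus in the deeper nuclei of the same mouse for each kinase. Against subcluster 4 of ND alone, the class level of STZ-HFHC was lower for Kdr in both mice and for Flt1 and Tek in STZ-HFHC 2, and Flt4 was higher in both, with an interval apart from that of subcluster 4 (79.8 to 112) in STZ-HFHC 1 alone. These sets are unlike, because the STZ-HFHC class level includes subcluster 5 (described below). Subcluster 5 had Kdr at 30.9 and 33.4 CPM and Tek at 35.8 and 38.6 CPM. The directions may depend on its inclusion, which was not tested.

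Subcluster 3 (Gm12648, Cfap69, Shisa9) held 410 and 250 nuclei of the STZ-HFHC mice, with hepatocyte markers at 8379 CPM and sinusoidal markers at 3675 CPM. It had the highest Flt4, at 385 CPM (348 to 425) and 237 CPM (201 to 277). Subcluster 2 (Cyp2a4, Chst11, Cyp2c70) held 265 and 405 nuclei, with hepatocyte markers at 12848 CPM and Flt4 at 189 and 161 CPM. Both subclusters were above subcluster 4 of ND, at 94.7 CPM (79.8 to 112), in Flt4. For Kdr, subcluster 4 of ND at 139.7 CPM (121 to 159.9) stood between subcluster 3, at 220.3 and 161 CPM, and subcluster 2, at 104 and 99.9 CPM. These subclusters share no library across conditions beyond 3 nuclei, so the comparison between them cannot be told apart from the libraries.

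Subcluster 5 (Slc22a3, Ephb2, Meg3) held 71 and 225 nuclei at 6761 UMIs, and 61.5% of it lay among the nuclei with the highest doublet scores. It had the lowest Flt1, Kdr and Tek of the STZ-HFHC subclusters, with Flt1 at 63.5 and 65.6 CPM. Subcluster 7 (Rgs5, Hba-a2, Hbb-bs), with hemoglobin genes and a pericyte gene in the lead, held 54 and 48 nuclei, with Kdr at 186 and 236 CPM.

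Subcluster 6, led by Vwf, Thsd7a and Myrip, held the large-vessel markers at 1934 CPM, against 54.4 to 359.6 CPM in the other 6. At the level of all nuclei the Vwf-led endothelial cluster held 7, 53 and 81 nuclei of the 3 libraries, too few for a level in ND. In subcluster 6, which held 20, 70 and 121 nuclei, Vegfc stood at 339 CPM (207 to 523) from 20 UMIs in ND, 169 CPM (119.9 to 233) and 291 CPM (237 to 354). Flt4 stood there at 67.7 CPM (18.5 to 173) from 4 UMIs, 152 CPM (105 to 212) and 34.6 CPM (17.9 to 60.4), and Tek at 152 CPM (69.7 to 289) from 9 UMIs, 374 CPM (299 to 464) and 265 CPM (214 to 325). Vegfc was thus not higher than ND in either STZ-HFHC mouse in subcluster 6, and Flt4 was higher in 1 of them only, with overlapping intervals. Vwf encodes the clotting factor carrier von Willebrand factor, which vein and artery endothelium store and sinusoids largely lack.

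Vegfc and Tek were higher in the Vwf-led cluster than in the larger endothelial-like cluster of the same mice. Vegfc stood at 277 CPM (203 to 369.6) and 349.8 CPM (274 to 439.8), against 88.8 CPM (77.4 to 101) and 58.6 CPM (50.8 to 67.3). Tek stood at 488 CPM (387 to 606) and 388 CPM (308 to 482), against 235 CPM (216 to 255) and 127 CPM (116 to 140.0). Flt1 stood at 469.8 and 465 CPM, against 259 and 189.8 CPM. Intervals were apart in both mice for these 3 genes. Nrp1 stood at 596 and 609 CPM, against 532 and 358 CPM, apart in STZ-HFHC 2 alone.

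Kdr and Flt4 were not higher there. Kdr stood at 90.4 CPM (50.6 to 149) and 67.1 CPM (36.7 to 113), against 135 CPM (121 to 151) and 79.1 CPM (69.9 to 89.1), with overlapping intervals. Flt4 stood at 199 CPM (137 to 279) and 62.3 CPM (33.2 to 107), against 232 CPM (213 to 252) and 112 CPM (102 to 124), with intervals that overlapped. Hepatocyte markers summed to 6505 and 9511 CPM in the Vwf-led cluster and to 10438 and 14048 CPM in the larger cluster. Only 15 and 14 Kdr UMIs and 33 and 13 Flt4 UMIs stood behind the Vwf-led values.

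**Figure D4:**
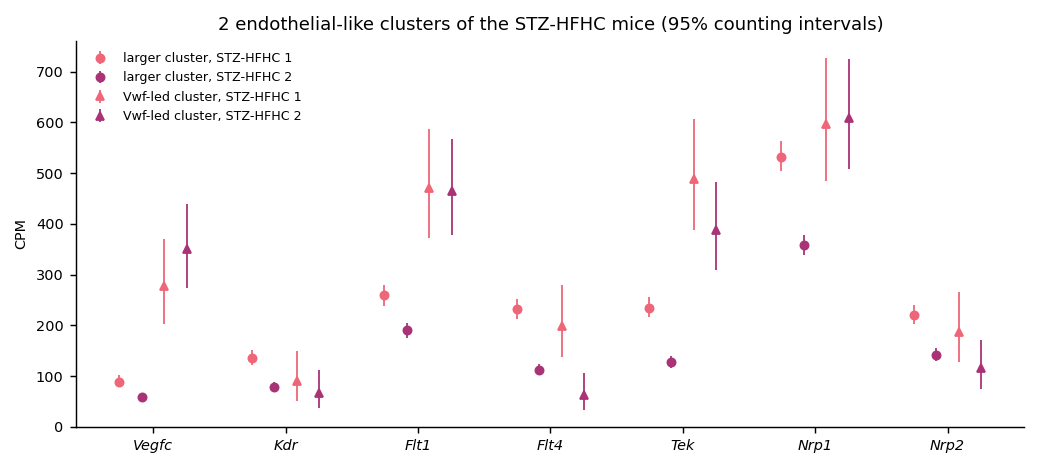
Vegfc and the 6 receptors and co-receptors in the larger endothelial-like cluster (circles) and the Vwf-led cluster (triangles) of the STZ-HFHC mice, in CPM with exact 95% Poisson intervals on a linear axis from 0. Vegfc, Flt1 and Tek sit higher in the Vwf-led cluster of both mice, and Kdr, Flt4 and Nrp2 do not.

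Nrp1 was read in every class and stood highest in endothelial-like nuclei, at 370.0 CPM (356 to 384), 537 CPM (509 to 566) and 372 CPM (353 to 392). Its fold over hepatocyte-like nuclei, 2.83, 5.49 and 4.86, was smaller than that of the kinases. STZ-HFHC 2 was level with ND and STZ-HFHC 1 above both, with log2 ratios of 0.54 and 0.01.

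In macrophage-like nuclei, 244, 1358 and 924 in number, Nrp1 stood at 154 CPM (130.3 to 181), 357 CPM (338 to 377) and 236 CPM (218 to 254). Nrp2 stood there at 26.9 CPM (17.6 to 39.4), 87.4 CPM (78.0 to 97.7) and 65.8 CPM (56.8 to 75.9), with log2 ratios of 1.68 and 1.27, past the rule. Flt4 was also past it, at 9.30, 28.3 and 25.3 CPM from 9, 101 and 73 UMIs. Both were thus higher in both STZ-HFHC mice, while Vegfa stood at 148, 74.5 and 73.1 CPM. The endothelial markers in these nuclei were higher too, at 339, 630.0 and 576 CPM, and their part in the Flt4 level was not tested. Per UMI of the macrophage markers neither gene was called, with log2 ratios of 0.35 and 0.86 for Flt4 and 0.49 and 0.75 for Nrp2, and Vegfa was called lower, at -2.18 and -1.53. Of the 8 genes with at least 50 UMIs, 2 were called higher and 0 lower, against 14.1% and 5.52% of the 10243 genes tested in the class. The median log2 ratio of the 8 was 0.75 and 0.73, beside 0.17 over all genes in each mouse. Most macrophage-like nuclei of ND, 226, lay in a cluster with 0 and 1 nuclei of the STZ-HFHC mice, and hepatocyte markers summed to 17873, 8693 and 13599 CPM. Neither rise was particular to this class. In T or NK cell-like nuclei Flt4 (log2 ratios 2.30 and 1.78, 50 UMIs) and Nrp2 (2.02 and 1.67, 83 UMIs) were past the rule too. Flt4 was also past 2-fold in B cell-like and cholangiocyte-like nuclei, from 37 and 26 UMIs, too few for the rule. In monocyte-like nuclei neither gene was called.

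Nrp2 stood at 108 CPM (101 to 116), 218 CPM (201 to 237) and 139 CPM (128 to 152) in endothelial-like nuclei. Mesothelial-like nuclei overlapped that range, at 146, 156 and 96.8 CPM. In stellate or fibroblast-like nuclei Nrp2 was 58.2, 34.1 and 34.2 CPM, and in the shared cluster it was 33.0, 33.6 and 33.9 CPM.

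In hepatocyte-like nuclei, 0 of the 10 genes were called in either direction, beside 8.67% higher and 5.72% lower of the 14746 genes tested. Flt4 came nearest, at 4.21 CPM (3.41 to 5.14), 8.95 CPM (7.83 to 10.2) and 7.91 CPM (7.0 to 8.9), with log2 ratios of 1.08 and 0.91. Vegfc stood at 30.7, 55.2 and 40.5 CPM and Nrp1 at 131, 97.7 and 76.6 CPM. The median log2 ratio of the 10 genes was -0.38 and -0.24, beside 0.09 and 0.11 over all genes tested.

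Summed over all nuclei kept of a library, Flt4 stood at 14.3, 43.9 and 27.2 CPM, Vegfc at 40.0, 74.8 and 65.5 CPM and Angpt1 at 9.50, 19.1 and 19.2 CPM. Vegfa stood at 145, 98.0 and 110.7 CPM and Kdr at 22.0, 26.3 and 22.9 CPM. In such sums, fewer nuclei of a class and less RNA per nucleus cannot be told apart. Flt4, Vegfc and Angpt1 were higher and Vegfa lower in both STZ-HFHC mice, and Kdr overlapped between ND (20.6 to 23.4) and STZ-HFHC 2 (21.7 to 24.2).

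**Figure D5:**
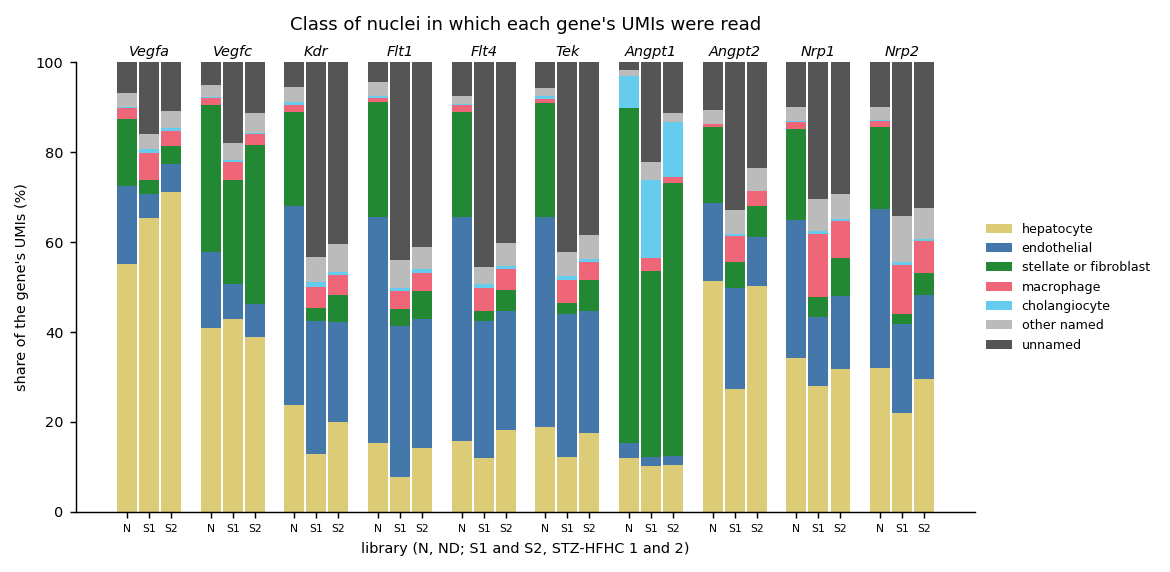
Share of each gene's UMIs (%) read in each class of nuclei, 1 stacked bar per library (N, ND; S1 and S2, STZ-HFHC 1 and 2), each bar adding to 100%. Unnamed nuclei hold 43.9% and 41.2% of Flt1 UMIs in the STZ-HFHC mice and 4.43% in ND, and stellate or fibroblast-like nuclei hold 74.6% of Angpt1 in ND.

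Many receptor UMIs of the STZ-HFHC mice lay in nuclei without a class. Endothelial-like nuclei held 50.1%, 33.6% and 28.7% of Flt1 UMIs and unnamed nuclei 4.43%, 43.9% and 41.2%. One unnamed cluster, of 36, 780 and 934 nuclei, had all 12 endothelial markers raised together with 10 of 12 macrophage and 6 of 12 stellate or fibroblast markers. In it Flt1 stood at 244 CPM (171 to 338), 190.4 CPM (177 to 204) and 205 CPM (193 to 219), and Kdr at 95, 102 and 95.1 CPM. Tek stood at 312, 182 and 139 CPM and Flt4 at 163 CPM (104 to 242), 184 CPM (172 to 198) and 114 CPM (104 to 124). In that cluster the ND intervals of Flt1, Kdr and Flt4 overlapped those of both STZ-HFHC mice and Tek was highest in ND, from 14 to 46 UMIs per kinase in ND.

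Around the 10 genes, 39 further genes of the pathway were followed in 7 lists: other VEGF and angiopoietin ligands, Tie1 with the phosphatase VE-PTP, class 3 semaphorins, plexins, VEGF-C processing, endothelial signalling and targets, and oxygen sensing. In endothelial-like nuclei 26 had enough UMIs, 8 were called higher and 0 lower, among them 3 of 4 semaphorins, 2 of 4 plexins and 3 of 7 signalling genes, beside the 8.34% higher and 5.43% lower of all genes tested there. The oxygen sensing list had 0 of 6 called in endothelial-like, hepatocyte-like and stellate or fibroblast-like nuclei and 0 of 5 in macrophage-like nuclei.

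Plexins are the signalling partners of neuropilins for semaphorins. In endothelial-like nuclei Plxna4 stood at 67.2, 294 and 202 CPM and Plxnd1 at 28.7, 128 and 87.2 CPM. The semaphorin Sema3a stood at 0.831, 15.8 and 4.13 CPM, Sema3c at 4.29, 11.2 and 21.7 CPM and Sema3f at 8.73, 39.6 and 20.9 CPM. Dll4, the Notch ligand induced by VEGF-A in sprouting endothelium, stood at 3.88, 17.3 and 9.63 CPM. Each was higher in both STZ-HFHC mice, and per endothelial marker UMI only 1 of the 26 was called higher, Sema3a, and 1 lower.

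In stellate or fibroblast-like nuclei 27 of the 39 were tested, 7 called higher and 0 lower, beside 11.3% higher and 8.49% lower of all genes tested there. All 3 genes of the VEGF-C processing list were among the 7. CCBE1 and ADAMTS3 act together to cleave VEGF-C into its active form, and SVEP1 is a matrix protein needed in lymphatic development. Ccbe1 stood at 193, 864 and 693 CPM, Adamts3 at 15.4, 100.2 and 68.6 CPM and Svep1 at 2.72, 48.0 and 28.1 CPM. As for Vegfc, the gap was narrow in the shared cluster. Ccbe1 stood there at 761 CPM (670.2 to 861), 865 CPM (824 to 907) and 693 CPM (668 to 720), and STZ-HFHC 2 was below ND. Adamts3 stood at 74.9 CPM (48.5 to 111) from 25 UMIs, 100.3 CPM (86.7 to 115) and 68.6 CPM (60.7 to 77.2), and Svep1 at 36.0 CPM (18.6 to 62.8) from 12 UMIs, 48.1 CPM (38.8 to 58.9) and 28.1 CPM (23.2 to 33.9). In the second cluster of ND the 3 genes stood at 164, 12.5 and 1.1 CPM. The intervals of ND overlapped those of both STZ-HFHC mice for each of the 3 in the shared cluster, and 1046 of the 1187 ND nuclei lay outside it. Of the other 4, Sema3a stood at 17.1, 63.0 and 65.5 CPM, Sema3d at 55.4, 173 and 174 CPM and Plxna1 at 7.86, 18.6 and 19.3 CPM. Per UMI of the class markers, 1 of the 27 was called higher (Svep1) and 18 lower. Those markers stood at 2959, 10850 and 8945 CPM, so a gene with unchanged CPM falls past 2-fold on this scale. Arnt, at 201, 182 and 195 CPM, was among the 18. The share over all genes is not given for this scale.

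In hepatocyte-like nuclei 28 were tested, with 3 called higher and 0 lower, beside 8.67% and 5.72% of all genes tested there. Foxo1, a transcription factor held back by insulin signalling and active in endothelium too, stood at 392, 998 and 889.8 CPM. Sema3b stood at 0.394, 2.63 and 1.78 CPM and Adamts3 at 0.789, 2.17 and 2.26 CPM, both low levels, from 139 and 153 UMIs over the libraries. In macrophage-like nuclei 18 were tested, with 5 called higher and 0 lower, beside 14.1% and 5.52% of all genes tested there.

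Genes with the most similar pattern were sought among 16432 genes over 27 points, the 9 classes in 3 libraries, by Pearson's r of log2(CPM + 1). For Vegfa these were Cluh (r = 0.92), Hoga1 (0.92) and Proser2 (0.92). For Kdr they were Sema6a (0.87), Samd12 (0.86) and Unc45b (0.85). Points of 1 library share its depth and free RNA, so the r values are a description.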

How the data were processed

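For 3 single-nucleus libraries of frozen mouse liver, the authors deposited raw UMI counts for 9424, 9923 and 11642 barcodes already taken as nuclei. Empty droplets were not analysed here, and free RNA was not corrected. The submitters' processing notes name Cell Ranger 7.0.1 and mm10. Whether intronic reads were counted and whether free RNA was removed are not given in the sources used here.

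Analyses used Python 3.11.15 with Scanpy 1.11.5, leidenalg 0.10.2, SciPy 1.17.1 and NumPy 2.4.6. As in the study's methods, barcodes needed 200 to 5000 genes and no more than 5% mitochondrial UMIs. This removed 889, 914 and 612 barcodes over the limit on genes and 41, 88 and 109 over the limit on mitochondrial counts. Of 77617520, 73942732 and 72934861 UMIs, 42715797, 44350401 and 55632923 were kept, so the loss was large and differed by library. Nuclei were clustered together by the Leiden method at resolution 1 (2000 variable genes, 30 components, 15 neighbours), with no batch correction and without the 10 genes and the 39 pathway genes. A class needed at least 3 markers raised 2-fold over the median of the other clusters, in at least 5% of nuclei and at least 33.3% of the list; mixed clusters and clusters led by mitochondrial genes stayed unnamed. A second step named hepatocyte-like clusters from hepatocyte markers at 1.2-fold. Scrublet's own threshold marked 1, 0 and 0 nuclei and did not work, so doublets were kept, and an alternative left out the highest 8% of scores.

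UMIs were summed per class and library (at least 20 nuclei) and given as CPM with exact Poisson 95% intervals. Shares have exact binomial (Clopper-Pearson) intervals. Both cover counting error only. The rule of size added 0.5 to each count. No statistical test was run between conditions. For shares, nuclei were thinned to 1000 UMIs, which left out 123, 97 and 93 endothelial-like and 216, 12 and 26 hepatocyte-like nuclei.

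The 10 genes, the marker lists, the pathway lists and the rule were chosen with earlier results of these data known. Named were the 10 genes, up to 6 called pathway genes with the largest smaller ratio in endothelial-like, hepatocyte-like and stellate or fibroblast-like nuclei, the 3 genes most like Vegfa and Kdr, the 3 leading genes of each endothelial-like subcluster and markers that define a class. Of the 32285 identifiers, 32235 (99.8%) were in GENCODE M21, which gave the coordinates on GRCm38. The steps were tested on simulated data. Clustering at other resolutions, all deposited barcodes, libraries clustered alone, thinning, other thresholds, leaving out each STZ-HFHC library scaling to class markers and leaving out an endothelial-like subcluster were tried as alternatives.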

Additional observations from a re-analysis of the deposited data

Results flagged for a closer look

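The following 6 differences between classes were picked out because both STZ-HFHC mice lay on one side of ND in one class and on the opposite side in another; none of these differences was tested, and the values are mean log2 ratios to ND over the 2 mice. Kdr differed by 1.42 between endothelial-like (0.82) and stellate or fibroblast-like nuclei (-0.60). Flt1 differed by 1.61 between the same classes (1.13 and -0.48), and Tek by 1.85 (1.03 and -0.82). Angpt2 differed by 1.93 between endothelial-like (1.08) and hepatocyte-like nuclei (-0.85). Nrp1 differed by 1.5 between macrophage-like (0.91) and hepatocyte-like nuclei (-0.59), and Nrp2 by 2.24 between macrophage-like (1.47) and stellate or fibroblast-like nuclei (-0.76). In each of these classes the summed hepatocyte markers were highest in ND. Per UMI of the class markers, the log2 ratios in endothelial-like nuclei were -0.05 and -0.21 for Kdr, 0.08 and 0.28 for Flt1, 0.19 and -0.03 for Tek and 0.17 and 0.08 for Angpt2, so that Kdr was then below ND. In macrophage-like nuclei they were 0.02 and 0.10 for Nrp1 and 0.49 and 0.75 for Nrp2. On the other side of these pairs, stellate or fibroblast-like nuclei had -2.53 and -2.14 for Kdr and -2.34 and -2.10 for Flt1. They had -2.89 and -2.23 for Tek and -2.64 and -2.36 for Nrp2. The stellate or fibroblast-like ratios are of the whole class, in which 1046 nuclei of ND lay in the second cluster. The class markers stood at 2959, 10850 and 8945 CPM, which lowers ratios per marker UMI. In the shared cluster Nrp2 was nearly level over the libraries, as given above. Hepatocyte-like nuclei had -1.10 and 0.01 for Angpt2 and -0.03 and -0.54 for Nrp1.

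Nuclei that no class took in held 43.8% (42.6 to 44.9) of the UMIs of Kdr, Flt1, Flt4 and Tek in STZ-HFHC 1 and 40.1% (39.0 to 41.2) in STZ-HFHC 2, against 5.42% in ND. The comparisons between conditions by class do not use these UMIs.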

How the results depend on the processing

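The counts of the 10 genes past the rule of size depended on how nuclei were classed, on the rule's fold and on single libraries. The share of all genes called is not given for the alternatives below. Their counts thus have no background and describe the 10 genes only. In endothelial-like nuclei 2 genes were called; resolution 2 gave 7, all deposited barcodes 8, libraries clustered on their own 1, a 4-fold rule 0, nuclei chosen by endothelial markers without clustering 0 scaling to class marker UMIs 1 (Vegfa, lower) and leaving out subcluster 1 gave 0. Leaving out a library gave 1 (without STZ-HFHC 1) to 7 (without STZ-HFHC 2). In hepatocyte-like nuclei the count of 0 became 1 per class marker UMI (Flt4) and 0 to 2 with a library left out (2 without STZ-HFHC 2, Flt4 and Angpt2). In stellate or fibroblast-like nuclei the count of 3 became 1 at 4-fold, 8 per class marker UMI (all lower), 0 in the shared cluster alone and 3 to 4 with a library left out. The class markers there stood at 2959, 10850 and 8945 CPM, so a gene with unchanged CPM counts as lower per marker UMI. In macrophage-like nuclei the count of 2 became 0 at resolution 0.5, 4 without the highest doublet scores, 0 at 4-fold, 1 per class marker UMI (Vegfa, lower) and 3 to 4 with a library left out (4 without STZ-HFHC 1). The cause was not tested. Clustering each library on its own left no macrophage-like class in ND, so that value could not be had, and leaving out ND leaves no ratio.

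The mean log2 ratio of Flt4 in endothelial-like nuclei ran from 0.76 to 2.81 over its alternatives, and that of Vegfc in stellate or fibroblast-like nuclei from 0.18 to 2.69. Of 124 values of single genes under alternatives, 115 kept their sign. Of the other 9, 4 were per class marker UMI, Kdr (-0.13), Nrp1 (-0.68) and Nrp2 (-0.26) in endothelial-like and Angpt1 (-0.12) in cholangiocyte-like nuclei. The remaining 5 were without subcluster 1 of endothelial-like nuclei, Kdr (-0.44), Flt1 (-0.09), Tek (-0.03), Nrp1 (-0.59) and Nrp2 (-0.31). That step took out nuclei of ND almost alone and kept subcluster 5 of the STZ-HFHC mice. The periportal excess of Vegfa (mean log2 ratio -0.17) ran from -0.14 to -0.19. Scaling to class markers, leaving out subcluster 1, the shared cluster alone and counting unnamed clusters were chosen after seeing the data. No paired analysis was possible because there was 1 ND mouse and no result came from a test. Depth limited Angpt2 and the classes under 60 nuclei.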
